A study of Mus musculus with 25 samples.

Results

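Imprinted genes are expressed from 1 parental allele, and 34 of them were followed in the sperm RNA of mice after prenatal exposure to DEHP (di(2-ethylhexyl) phthalate, a plasticizer). The 34 genes were taken by symbol from the 24358 genes of the table, and each had a valid estimate in all 5 conditions. By textbook knowledge, 12 are maternally and 20 paternally expressed. Grb10 and Gnas change parental origin with the transcript or tissue and were kept outside both classes.

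The vehicle groups were C57.CTL.F1 and FVB.CTL.F1, the exposed groups of the first generation were FVB.D300.F1 and C57.D300.F1, and the F2 group was C57.D300.F2. The 5 values of a gene are always listed with C57BL/6J first (vehicle, DEHP F1, DEHP F2), followed by FVB/N (vehicle, DEHP F1). C57 and FVB stand for the inbred strains C57BL/6J and FVB/N. Pregnant females of the D300 lineages received 300 mg/kg/day DEHP in corn oil by mouth from embryonic day 9 to 19, and those of the CTL lineages received the corn oil alone. F1 males were exposed in utero, whereas F2 males were sons of exposed F1 males and newly ordered females and were not dosed themselves. All males were 14 weeks old, and their sperm swam out of incised cauda epididymides before RNA extraction and all-RNA-seq, in which RNAs were sequenced whatever the state of their ends. Each condition had 5 libraries. The series holds no F2 control, and the number of dams behind each group is not given in the sources used here. The 10 C57BL/6J F1 libraries were re-analysed ones per their labels, and the remaining 15 were new. The strain thus cannot be told apart from the library set where an FVB/N condition is compared with a C57BL/6J F1 condition, nor can the generation where F2 is compared with F1. C57.D300.F2 and both FVB/N conditions belong to the same set, but they differ in generation and in exposure. FVB.D300.F1 males were exposed in utero, C57.D300.F2 males were sons of exposed males, and FVB.CTL.F1 males belonged to a vehicle lineage.

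The deposited value was 1 estimated fragment count per gene and condition, pooled over its 5 libraries and scaled between libraries by the Cuffdiff program. With 1 pooled value per condition, no difference below was tested. The only error is the SD that Cuffdiff's model gave for each count (model SD), which is no SD between males. A member was counted as past the fold when the log2 ratio of the counts with 1 added reached 1 in either direction and the higher of both counts was at least 10. The share of all genes past the same fold is given beside the counts of members. It was not computed for counts under other scalings, pseudocounts or minima, or for the difference in response between strains under other limits.

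Genomic imprinting relies on DNA methylation marks set differently in the female and male germ lines at control regions, which then silence 1 allele of the nearby genes in the offspring. Most control regions are methylated in oocytes, and few are methylated in sperm, among them those of the H19-Igf2, Dlk1-Meg3 and Rasgrf1 domains. Zdbf2 was grouped with these domains here, and this grouping was not checked against methylation data. Many imprinted genes act on fetal and placental growth, and sperm of cauda epididymis carry the paternal marks and a residual RNA load from earlier stages of spermatogenesis and from the epididymis.

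Total counts ranged from 6921688 in C57.D300.F2 to 8602900 in C57.CTL.F1. Germ cell markers were present throughout, with at least 10 counts for all 10 of them in each condition, and the protamine Prm2 had 20903, 12610, 6651, 1584 and 2019 counts. Their summed counts were 87912, 74017, 29827, 7257 and 8718, with both FVB/N sums below those of C57BL/6J. RNAs of other tissues were present too, and they differed between conditions. The 11 liver markers summed to 240022, 201518, 5408, 1250 and 825 counts, with 83529 and 100464 counts of albumin (Alb) in the re-analysed C57BL/6J libraries and 349 to 2559 in the others. The 7 seminal vesicle markers summed to 219569, 70.5, 507, 326 and 207 counts. The 16 epididymal markers summed to 134338, 30494, 32819, 40075 and 316236 counts, with Crisp1 missing in the middle 3 conditions because its estimate failed. Smooth muscle and connective tissue markers (10 genes, 28333 to 46956 counts), endothelial markers (4 genes, 566 to 1653 counts) and blood markers (7 genes, 29771 to 46571 counts) varied less. In such bulk RNA, fewer cells of a type and less RNA per cell cannot be told apart, and the part of these tissues in the imprinted genes was not tested.

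The imprinted genes made up 0.245%, 0.276%, 0.351%, 0.337% and 0.313% of all counts. At least 10 counts in 1 condition were reached by 30 of the 34, and 28 reached this level in all 5. The 4 below it everywhere were the paternally expressed Magel2 (0.853 to 7.64 counts) and Mkrn3 (4.34 to 7.38 counts) and the maternally expressed Phlda2 (listed at 0 in C57.CTL.F1 and at most 2.30) and Ascl2 (0.490 to 2.58 counts). For comparison, 27.1% of all genes stayed under 10 counts in every condition. Kcnq1ot1 and Gnas alone held 68.9% to 73.4% of the counts of imprinted genes.

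Gnas, which encodes the stimulatory G protein alpha subunit, had 8259, 7529, 7672, 8411 and 6810 counts. Its highest value was 1.24 times its lowest, the second smallest spread among members after Ube3a at 1.20. Kcnq1ot1, a long RNA that silences its neighbours on the paternal chromosome, had 7195, 8059, 10150, 9670 and 11030 counts. Per kilobase of exon, averaged over conditions, Gnas led with 692 counts, followed by the IGF2 receptor Igf2r with 183, Kcnq1ot1 with 99.1, Impact with 96.1 and Rasgrf1 with 79.3. Kcnq1ot1 is annotated over 93.1 kb of exon, so its rank is lower on this scale than by its count. The order depended on the length used, since with the longest transcript it was Gnas (1960.0 counts per kilobase), Igf2r (191), Rasgrf1 (184), Airn (134), Impact (131) and Kcnq1ot1 (99.1).

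Maternally and paternally expressed genes were then compared in level, without a test. The median level per kilobase was 13.8 counts for the 12 maternally expressed genes (range 0.845 to 183) and 15.8 for the 20 paternally expressed ones (range 0.692 to 99.1). By condition, the medians were 10.8, 12.001, 12.98, 15.3 and 15.8 for the maternal class and 15.2, 14.5, 15.9, 17.8 and 15.8 for the paternal class. Quartiles of the levels averaged over conditions were 1.34 and 55.4 for the maternal and 6.72 and 54.8 for the paternal class. With the length of the longest transcript in place of all exons, the medians were 16.3 and 23.8. Across the 5 conditions, the highest value was 2.01 times the lowest in the median of the 8 maternally expressed genes with at least 10 counts throughout, and 1.91 times in that of the 18 paternally expressed ones. The median over all genes at this level was 1.73.

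**Figure D1:**
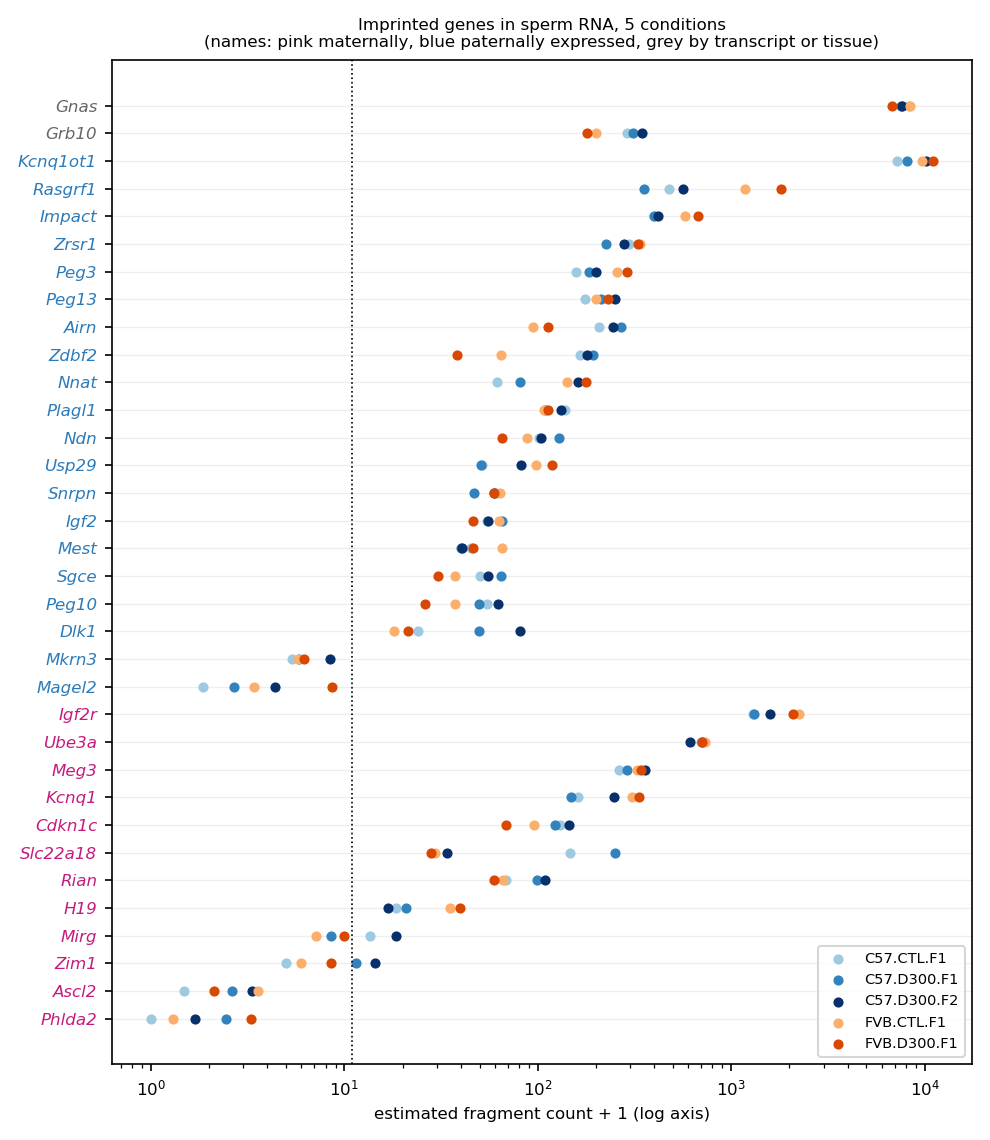
Estimated fragment count plus 1 on a log axis for each imprinted gene, with 1 point for each of the 5 conditions, ordered by mean count within the maternal, paternal and mixed classes. The dotted line marks 10 counts; 4 genes lie below it in all conditions, and Rasgrf1, Zdbf2, Dlk1 and Slc22a18 have the widest gaps between conditions among genes above it.

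Of the 30 genes with at least 10 counts in 1 condition, 9 had both FVB/N values above all 3 C57BL/6J values and 10 had both below. These shares, 30.0% and 33.3%, were close to the 29.4% and 32.4% of all genes, and 63.3% against 61.8% did not overlap in either direction, which was not tested. Genes higher in FVB/N were H19, Igf2r, Peg3, Mest, Kcnq1, Usp29, Impact, Rasgrf1 and Zrsr1. Those lower were Dlk1, Rian, Peg10, Grb10, Ndn, Cdkn1c, Sgce, Slc22a18, Airn and Zdbf2. The maternal class had 3 on each side and the paternal class 6 on each side.

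Among the widest strain contrasts was that of Rasgrf1, a guanine nucleotide exchange factor that activates Ras (chr9:89909508-90026979, GRCm38), whose paternal expression depends on a control region methylated in sperm. Its counts were 478, 353, 563, 1181 and 1814, with model SDs of 115, 85.1, 140, 305 and 491. Both FVB/N values lay above all C57BL/6J values. The log2 ratio with its model SD was 1.30 ± 0.51 between the vehicle groups and 2.36 ± 0.52 between the DEHP F1 groups. Against C57.D300.F2, which shares its library set with FVB/N, the ratios were 1.07 ± 0.52 for FVB.CTL.F1 and 1.69 ± 0.53 for FVB.D300.F1. The ratio of 1.07 fell to 0.94 when conditions were scaled to equal totals, while the other 3 stayed past the fold in every scaling.

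Zdbf2, a zinc finger gene grouped here with the sperm-methylated domains (chr1:63200358-63314576), differed in the opposite direction. It had 164, 193, 179, 63.8 and 37.1 counts, with model SDs of 41.0, 46.8, 44.9, 20.9 and 13.4. The 3 C57BL/6J values lay close together and both FVB/N values below them. Log2 ratios were -1.35 ± 0.59 between vehicle groups, -2.35 ± 0.62 between DEHP F1 groups, and -1.48 ± 0.59 and -2.24 ± 0.62 for FVB.CTL.F1 and FVB.D300.F1 against C57.D300.F2. These 4 comparisons of each gene share conditions and are not independent of each other. The summed germ cell markers were also lower in FVB/N, as given above, whereas Rasgrf1 was higher there. These sums differed within C57BL/6J as well (87912, 74017 and 29827), and their part in both genes was not tested.

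The start regions of Rasgrf1 and Zdbf2 are shown because both genes passed the fold and their model SD in all 4 strain comparisons, in opposite directions. Airn, given below, also passed the fold in all 4, but never by more than its model SD. Both genes were grouped here with sperm-methylated domains. CpG dinucleotides, the sites that methylation marks, are in capitals. The windows run from 250 bases before to 50 after a start annotated by RefSeq on GRCm38.p6, on the + strand. They are promoter windows, and whether any of them overlaps a germline control region was not examined. Methylation was not analysed here.
Rasgrf1 (chr9:89909525-89909824): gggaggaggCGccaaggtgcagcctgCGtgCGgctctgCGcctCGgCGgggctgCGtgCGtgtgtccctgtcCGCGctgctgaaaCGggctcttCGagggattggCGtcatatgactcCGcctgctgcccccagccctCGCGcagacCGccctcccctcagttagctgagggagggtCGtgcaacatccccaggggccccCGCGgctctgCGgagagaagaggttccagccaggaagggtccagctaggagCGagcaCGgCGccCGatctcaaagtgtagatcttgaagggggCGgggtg
Zdbf2, upstream start (chr1:63200108-63200407): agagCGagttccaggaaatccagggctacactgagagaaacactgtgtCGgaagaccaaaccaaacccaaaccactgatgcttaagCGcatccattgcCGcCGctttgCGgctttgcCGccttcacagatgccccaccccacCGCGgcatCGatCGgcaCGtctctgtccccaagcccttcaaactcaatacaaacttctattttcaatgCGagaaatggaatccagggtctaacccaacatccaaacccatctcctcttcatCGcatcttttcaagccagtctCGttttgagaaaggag
Zdbf2, downstream start (chr1:63273019-63273318): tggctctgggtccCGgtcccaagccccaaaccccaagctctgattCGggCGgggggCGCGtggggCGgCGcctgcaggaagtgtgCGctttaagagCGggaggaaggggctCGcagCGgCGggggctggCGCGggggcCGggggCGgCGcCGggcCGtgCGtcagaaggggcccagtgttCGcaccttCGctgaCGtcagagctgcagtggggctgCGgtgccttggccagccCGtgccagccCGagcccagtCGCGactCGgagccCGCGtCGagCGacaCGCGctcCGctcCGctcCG
The letters CG occurred 26 times in the Rasgrf1 window, and 15 and 38 times in the Zdbf2 windows. At least as many were found in 16.9%, 34.6% and 4.95% of the 32851 promoter windows of the same length, whose median was 7. CG reads the same on both strands and was counted once per site. Windows were used for 27 of the 34 genes (41 starts), with a median of 14 CG. The median was 16.5 over 10 windows of maternally and 11 over 25 windows of paternally expressed genes, and several starts belong to the same gene. The Rasgrf1 window was thus CG-rich, and of the Zdbf2 starts the downstream one was among the richest of all promoters.

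H19, a maternally expressed long noncoding RNA, and Igf2, the fetal growth factor whose silence on the maternal chromosome is set by the same control region, are neighbours on chromosome 7. H19 (chr7:142575530-142578146) had 17.5, 19.8, 15.9, 34.1 and 38.7 counts, with model SDs from 6.65 to 13.6. Log2 ratios of FVB/N to C57BL/6J were 0.93 and 0.93 within vehicle and DEHP F1 groups, and 1.06 and 1.23 against C57.D300.F2. At these counts the fold is reached narrowly, and both values past it fell below 1 with equal totals (0.94 and 0.99). Igf2 had 53.4, 64.1, 54.0, 62.4 and 45.0 counts and overlapped between strains. The ratio of H19 to Igf2 within a condition was 0.327, 0.308, 0.294, 0.546 and 0.860, so it was higher in both FVB/N conditions. The microRNA genes inside H19 (Mir675), Igf2 (Mir483) and Mest (Mir335) had under 2 counts in every condition.

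Igf2r, the receptor that clears IGF2, and Airn, the antisense RNA that silences Igf2r on the paternal chromosome, overlap on chromosome 17. Igf2r (chr17:12682406-12769706) had 1290, 1305, 1586, 2233 and 2093 counts, with model SDs from 381 to 648. Airn (chr17:12741311-12859884) had 205, 269, 245, 93.2 and 112 counts, with model SDs from 129 to 202. FVB/N was thus higher for the receptor and lower for its antisense RNA. Airn passed the fold in all 4 strain comparisons (log2 ratios from -1.38 to -1.12), but none of these differences exceeded its model SD. The value between vehicle groups was -0.95 with equal totals or upper quartile scaling. The ratio of Airn to Igf2r was 0.159, 0.206, 0.154, 0.042 and 0.053. The mapping was strand-aware, but whether the counting used strand is not given in the sources used here, so reads may have been exchanged between the overlapping genes.

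**Figure D2:**
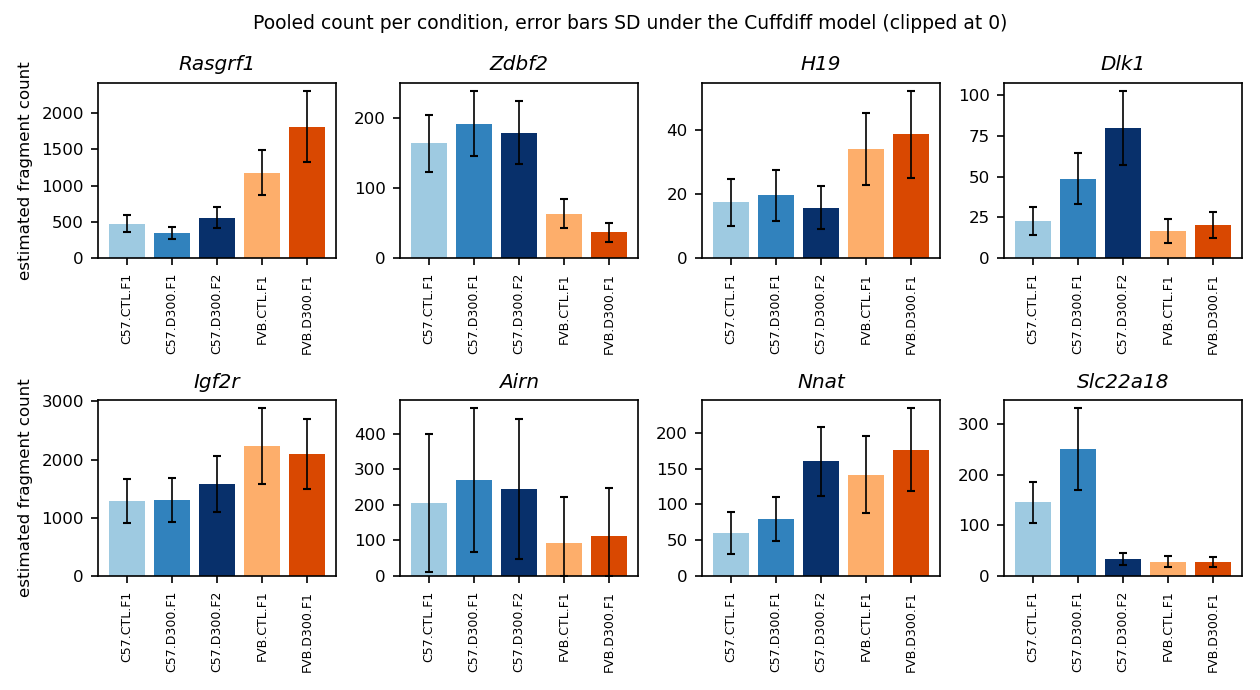
Estimated fragment counts (linear axes from 0) of 8 imprinted genes in the 5 conditions, as bars with the SD under Cuffdiff's model, cut at 0. Rasgrf1, H19 and Igf2r are higher and Zdbf2, Dlk1 and Airn lower in both FVB/N conditions, while Slc22a18 is high and Nnat low in the 2 re-analysed C57BL/6J conditions.

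The Dlk1-Meg3 domain on chromosome 12 holds the paternally expressed Dlk1, a membrane ligand-like protein that holds back adipocyte differentiation, and the maternally expressed noncoding RNAs Meg3, Rian and Mirg, which host many small RNAs. Dlk1 (chr12:109452485-109463336) had 22.9, 48.8, 79.7, 17.0 and 20.4 counts, with model SDs of 8.65, 15.5, 22.5, 7.37 and 7.84. It was highest in C57.D300.F2 and lowest in FVB/N. Relative to C57.CTL.F1, the log2 ratio was 1.06 ± 0.69 for the exposed F1 and 1.76 ± 0.66 for the F2 males. FVB.CTL.F1 and FVB.D300.F1 lay at -2.17 ± 0.72 and -1.92 ± 0.66 against C57.D300.F2. FVB.D300.F1 lay at -1.22 ± 0.69 against C57.D300.F1, and FVB.CTL.F1 at only -0.41 against C57.CTL.F1.

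Meg3, at 263, 289, 358, 323 and 340.3 counts, varied little, and Rian had 67.4, 98.2, 108, 64.9 and 58.0. The ratio of Dlk1 to Meg3 was 0.087, 0.169, 0.223, 0.052 and 0.060. Mirg had 12.6, 7.57, 17.5, 6.13 and 8.94 counts. Mirg passed the fold between C57.D300.F2 and C57.D300.F1 (1.11) and between FVB.CTL.F1 and C57.D300.F2 (-1.38), in both cases by less than its model SD.

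Small RNAs of this domain followed more than 1 pattern. Of 60 microRNA genes in the table, 4 reached 10 counts, and the 60 summed to 110, 140, 315, 121 and 133 counts. Mir127 had 59.5, 79.1, 185, 82.1 and 94.0 counts, with a model SD of 53.0 in C57.D300.F2 and of 21.1 to 27.9 elsewhere. Mir541 had 13.3, 17.2, 48.3, 17.0 and 15.4 counts, and Mir411 7.14, 7.94, 21.6, 0.629 and 1.41. Mir434 had 6.99, 7.48, 14.7, 1.84 and 1.504 counts. Mir127 and Mir541, which reached 10 counts in all 5 conditions, were highest in C57.D300.F2, as was Dlk1. Mir411 and Mir434 reached 10 counts only in C57.D300.F2, so the limit itself chose genes that are high there, and the Mir434 value had a model SD of 15.1. Of 7 snoRNA genes of the domain, 4 reached 10 counts. AF357425, which lies within Rian, had 171, 207, 118, 210 and 320 counts, lowest in C57.D300.F2 and highest in FVB.D300.F1. DQ267100 had 19.1, 32.0, 45.0, 31.2 and 46.3 counts and was higher in C57.D300.F2 than in both C57BL/6J F1 groups. AF357426, with 16.6, 17.0, 14.6, 9.35 and 17.9 counts, and AF357355, with 6.12, 5.80, 5.94, 8.19 and 14.3 counts, differed little within C57BL/6J. For these last 3 genes the model SD was about as large as the count or larger, apart from 2 values of DQ267100. In the Snrpn-Ube3a domain the snoRNA gene Snord64 had 23.8, 26.2, 42.0, 23.0 and 23.3 counts.

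The mature sequences of these 4 microRNAs are shown because they were the only microRNAs of the imprinted domains examined to reach 10 counts. The seed, bases 2 to 8 from the 5′ end, is in capitals, and the sequences are from RefSeq on GRCm38.p6.
mmu-miR-127-5p: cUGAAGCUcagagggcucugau
mmu-miR-127-3p: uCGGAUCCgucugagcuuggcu
mmu-miR-434-5p: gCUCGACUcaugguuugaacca
mmu-miR-434-3p: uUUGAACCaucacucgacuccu
mmu-miR-411-5p: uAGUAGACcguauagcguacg
mmu-miR-411-3p: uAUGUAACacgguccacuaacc
mmu-miR-541-5p: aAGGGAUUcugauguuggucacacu
mmu-miR-541-3p: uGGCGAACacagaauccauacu
The 8 sequences carry 8 distinct seeds, so no group shares one. The counts belong to the genes, and the arms of a hairpin were not counted apart.

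**Figure D3:**
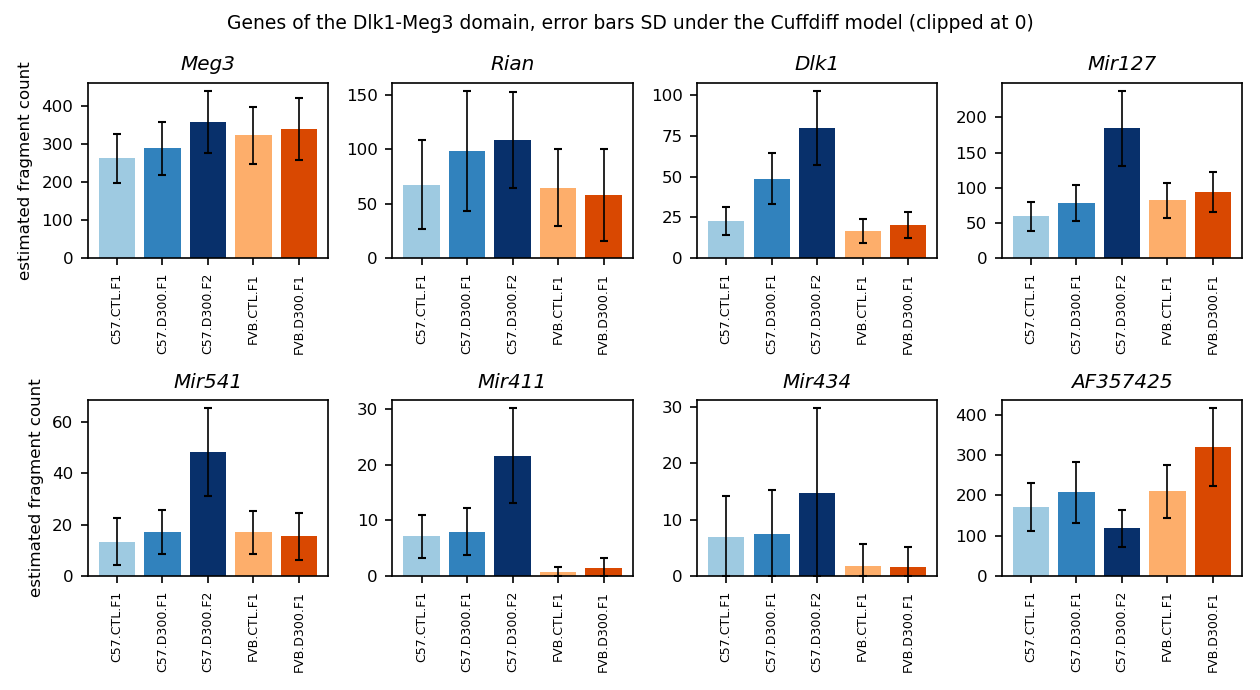
Estimated fragment counts (linear axes from 0) of 3 imprinted genes and 5 small RNA genes of the Dlk1-Meg3 domain in the 5 conditions, with the SD under Cuffdiff's model, cut at 0. Dlk1, Mir127 and Mir541 are highest in C57.D300.F2, Meg3 is nearly even, and the snoRNA gene AF357425 is lowest there; Mir411 and Mir434 were included because they reached 10 counts in that condition alone.

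The comparison of DEHP with vehicle asks whether the exposure changed the sperm RNA of F1 males in each strain. In C57BL/6J, 2 of 30 imprinted genes passed the fold, Dlk1 and Zim1, both higher with DEHP. Over all genes, 2.24% passed it, 1.09% higher and 1.15% lower. Zim1, a maternally expressed zinc finger gene next to Peg3, had 3.98, 10.4, 13.5, 4.94 and 7.56 counts, with model SDs of 2.65 to 5.92. The Zim1 ratio of 1.20 ± 0.98 thus rested on few counts. Differences past their model SD were found for these and for Slc22a18 (0.78 ± 0.61), or 3 of 30 genes, against 6.57% of all genes. The median log2 ratio was 0.12 over the 30 genes, 0.08 for the maternal and 0.19 for the paternal class, and -0.01 over all genes.

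In FVB/N, none of 28 imprinted genes passed the fold with DEHP, against 2.77% of all genes (2.16% higher and 0.619% lower). The 2 differences past their model SD, against 5.65% of all genes, were those of Rasgrf1, which was higher with DEHP by a log2 ratio of 0.62 ± 0.54, and of Zdbf2, which was lower by -0.77 ± 0.69. These ratios add to the strain contrast of both genes, since the FVB/N vehicle group already lay above or below C57BL/6J. The epididymal markers were also higher with DEHP in this strain (316236 against 40075 counts), although only the first sum includes Crisp1. Over the 15 epididymal markers measured in both FVB/N conditions, the median log2 ratio was 6.63. The part of these markers in the 2 values was not tested. Medians were -0.05 over the 28 genes, -0.06 for the maternal class, 0.12 for the paternal class and 0.00 over all genes.

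The response of each gene was then compared between strains as the FVB/N log2 ratio minus the C57BL/6J one. The difference reached 1 for Rasgrf1 (1.06 ± 0.73) and for Mirg (1.15 ± 2.20) among 30 genes, or 6.67%, against 7.38% of all genes. Rasgrf1 was lower with DEHP in C57BL/6J (-0.44) and higher in FVB/N (0.62). Zdbf2 lay just inside the limit, with a difference of -0.995 ± 0.85 in the opposite direction. The direction was the same in both strains for 16 of the 30 genes, or 53.3%, against 49.2% of all genes. Higher with DEHP in both strains were 10 genes and lower in both were 6. These shares between strains were near those of all genes, and neither was tested.

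**Figure D4:**
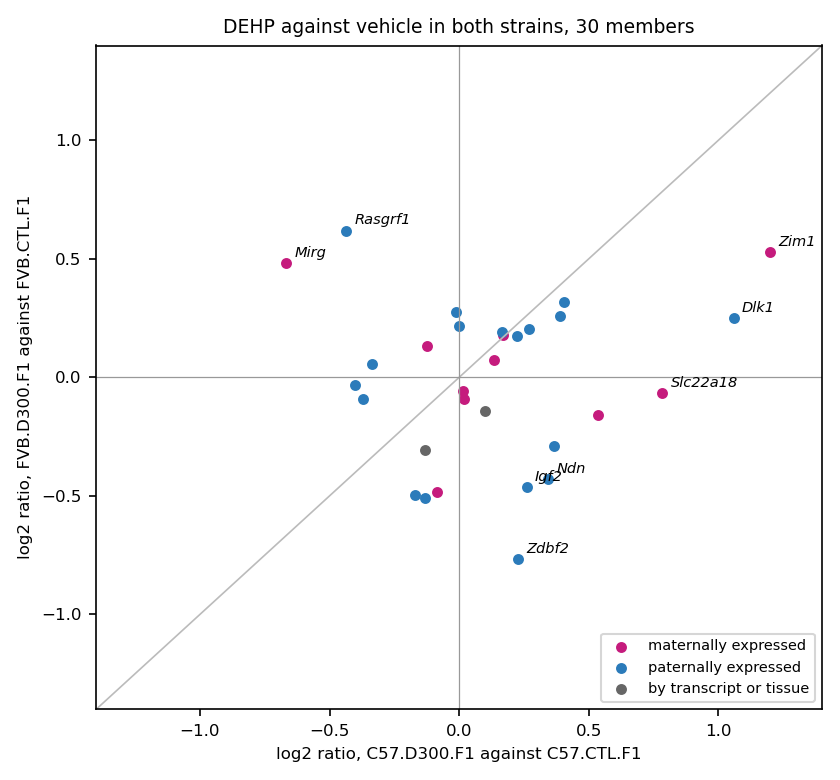
Log2 ratio of DEHP to vehicle in C57BL/6J (horizontal axis) and FVB/N (vertical axis) for 30 imprinted genes, coloured by parental class, with the line of equal ratios. Dlk1 and Zim1 lie beyond 1 in C57BL/6J only, no gene does in FVB/N, and Rasgrf1 and Zdbf2 lie on opposite sides of the line.

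C57.D300.F2 was compared with the C57BL/6J F1 groups to follow the exposed lineage, although the F2 libraries came from the other library set. Against C57.CTL.F1, Dlk1, Nnat and Zim1 were higher (log2 ratios 1.76, 1.40 and 1.54) and Slc22a18 was lower (-2.10), or 4 of 30 genes against 14.3% of all genes. Of all genes, 4.1% were higher and 10.2% lower. Against C57.D300.F1, Mirg was higher and Slc22a18 lower (-2.89), or 2 of 30 genes against 11.0% (2.69% higher and 8.35% lower). With each of the 3 other scalings 2 genes were higher and 1 lower. Medians of the maternal class were 0.37 and 0.26 and those of the paternal class 0.16 and 0.26, while all genes lay at -0.04 and -0.05.

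Slc22a18, a maternally expressed transporter gene of the Kcnq1 domain (chr7:143473726-143499334), had 146, 251, 33.1, 28.5 and 27.1 counts, with model SDs of 40.6, 80.7, 11.5, 10.4 and 10.01. The 3 conditions made for this study lay together, and both re-analysed conditions were several times higher. The same split held for the liver markers, at 201518 or more counts against 5408 or fewer, and their part in the Slc22a18 values was not tested. Within the newer set, Slc22a18 did not pass the fold (-0.21 and -0.28 for FVB/N against C57.D300.F2).

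Nnat, which encodes the proteolipid neuronatin and lies within an intron of Blcap, followed the library set in the opposite direction, with 60.2, 79.9, 160.5, 141 and 177 counts and model SDs of 29.3, 30.7, 48.2, 53.8 and 57.9. Its log2 ratio between strains was 1.22 and 1.13 against the C57BL/6J F1 groups, and -0.18 and 0.14 against C57.D300.F2. Its ratio to Blcap was 0.758, 0.819, 1.79, 1.07 and 1.73. The strain difference of Nnat thus passed the fold only where the library sets differed, in contrast to those of Rasgrf1 and Zdbf2.

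Between the vehicle groups, 2 of 29 genes were higher in FVB/N (Nnat and Rasgrf1) and 3 were lower (Slc22a18, Airn and Zdbf2), against 26.3% of all genes (7.5% higher and 18.8% lower). With equal totals or the upper quartile, 5 were higher and 2 lower. Between the DEHP F1 groups, 4 of 29 were higher (Kcnq1, Nnat, Usp29 and Rasgrf1) and 5 lower (Dlk1, Sgce, Slc22a18, Airn and Zdbf2), against 31.9% (12.0% and 19.9%). The split was 5 and 4 with the upper quartile and 4 and 7 with equal totals.

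Within the newer library set, FVB.CTL.F1 differed from C57.D300.F2 in 7 of 30 genes, against 15.8% of all genes (4.2% higher and 11.6% lower). H19 and Rasgrf1 were higher, and Dlk1, Mirg, Zim1, Airn and Zdbf2 lower. FVB.D300.F1 also differed from it in 7 of 30 genes, against 17.6% (6.98% and 10.6%). Again H19 and Rasgrf1 were higher, and Dlk1, Airn, Zdbf2, Peg10 and Cdkn1c lower. With equal totals, the splits became 0 higher and 5 lower, and 1 higher and 9 lower. Of these 7, the difference also exceeded its model SD in 5 and 6, where 14.5% and 16.0% of all genes met both limits. Of the 8 genes grouped with sperm-methylated domains, Zdbf2 among them, 5 and 4 were past the fold here, and 2 and 3 of the 22 other genes. Zdbf2 was past the fold in both comparisons, so these counts change with its grouping, which was not checked. The contrast was smaller in the strain comparisons with the re-analysed groups, at 2 of 8 and 3 of 21 between vehicle groups and 3 of 7 and 6 of 22 between DEHP F1 groups. Both FVB/N values lay outside the C57BL/6J range for 62.5% of the 8, near the 61.8% of all genes. H19, Dlk1, Rasgrf1 and Zdbf2 were among those past the fold in both comparisons with C57.D300.F2, although equal totals put H19 in both and Rasgrf1 in the first under it. Genes of one domain share their control region, and these are counts over few genes without a test.

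**Figure D5:**
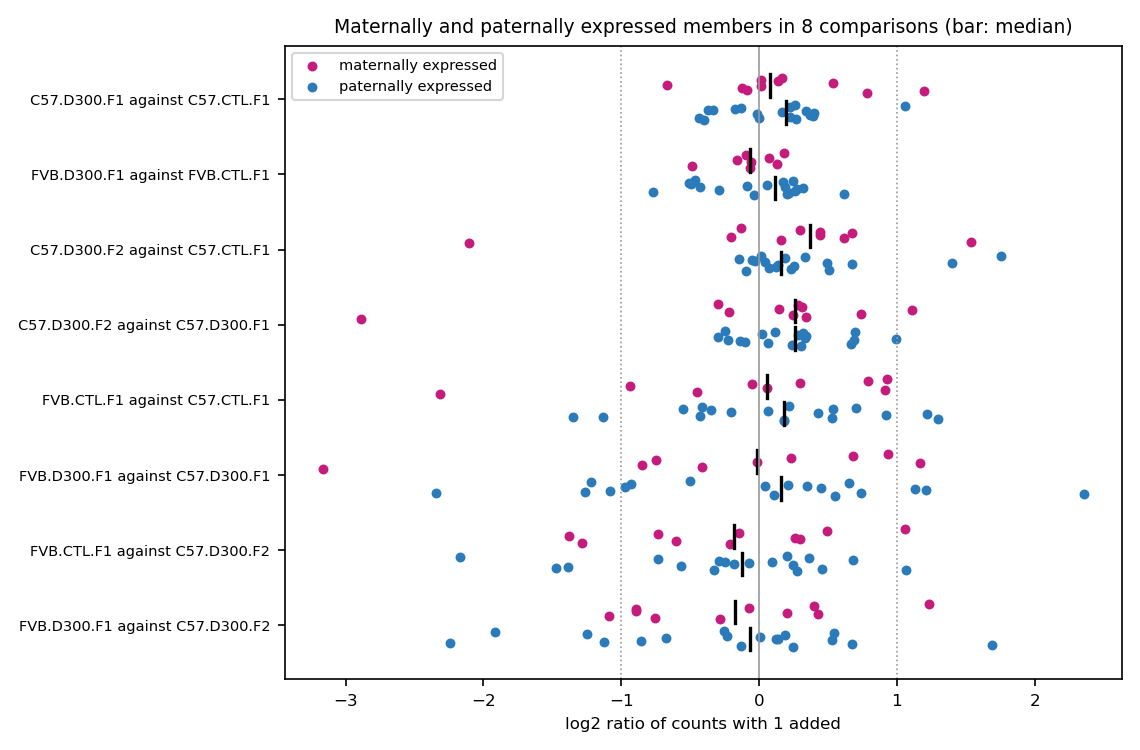
Log2 ratios of the maternally (pink) and paternally (blue) expressed genes measured with 10 or more counts, in each of the 8 comparisons, with the median as a black bar and dotted lines at 1 and -1. The medians of both classes lie between -0.18 and 0.37 in the 8 comparisons.

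Across these strain comparisons the medians of the parental classes were 0.06 (maternal) and 0.18 (paternal) between vehicle groups, -0.01 and 0.16 between DEHP F1 groups, and -0.18 and -0.13, then -0.18 and -0.06, for FVB.CTL.F1 and FVB.D300.F1 against C57.D300.F2. The medians of all genes were -0.03, -0.07, 0.00 and -0.01. Whether the classes differed was not tested.

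In the Kcnq1 domain, Kcnq1ot1 (chr7:143213111-143296547) was lowest in C57.CTL.F1, with log2 ratios of 0.43 and 0.45 between the strains within vehicle and DEHP groups and of -0.07 and 0.12 against C57.D300.F2. Kcnq1, a potassium channel gene whose introns contain it, had 161, 148, 248, 304 and 333 counts, but the model SD was 2.42 to 2.88 times the count. The ratio of Kcnq1ot1 to Kcnq1 was 44.6, 54.5, 41.0, 31.8 and 33.1, and most reads of this overlapping pair were thus assigned to the noncoding RNA. Cdkn1c, which encodes the cell cycle inhibitor p57, had 129.7, 122, 145, 94.7 and 67.4 counts. Its log2 ratio of -1.09 ± 0.55 in FVB.D300.F1 against C57.D300.F2 was past the fold.

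In the Peg3 domain, the zinc finger gene Peg3 had 157, 184, 199, 256 and 289.6 counts, and Usp29, of the ubiquitin-specific protease family, had 50.5, 50.03, 81.2, 96.7 and 117 counts. Both were higher in FVB/N, and Usp29 passed the fold between the DEHP F1 groups (1.21 ± 0.58). The ratio of Usp29 to Peg3 stayed between 0.273 and 0.409. The retrotransposon-derived Peg10 had 53.5, 48.8, 61.0, 36.3 and 25.2 counts, and its neighbour Sgce, epsilon-sarcoglycan, had 49.0, 63.4, 54.0, 36.2 and 29.4. Both were lower in FVB/N, Peg10 by -1.25 ± 0.68 in FVB.D300.F1 against C57.D300.F2 and Sgce by -1.08 ± 0.65 between the DEHP F1 groups.

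In the Snrpn-Ube3a domain, the ubiquitin ligase gene Ube3a had 700.2, 707, 609, 729 and 701 counts and was the most even member. Snrpn, a spliceosomal protein gene, had 59.7, 45.9, 58.4, 62.4 and 58.6 counts. Part of its reads may be shared with Snurf, which lies on the same transcript, and with the near-identical paralog Snrpb. Ndn, which encodes the MAGE family protein necdin, had 100.04, 127, 103, 86.8 and 64.2 counts, a log2 ratio of -0.98 ± 0.56 between the DEHP F1 groups. None of these 3 genes passed the fold in any comparison.

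The remaining members also stayed under the fold throughout. Grb10, an adaptor protein that dampens insulin and IGF receptor signalling, had 288, 308, 343, 198 and 179 counts, and all 4 of its strain differences (-0.54 to -0.93) exceeded their model SD. Impact, a regulator of translation, had 399.6, 399.7, 419, 576 and 669 counts and was higher in FVB/N by 0.46 to 0.74. Mest, of the alpha/beta hydrolase family, had 44.2, 39.1, 39.8, 64.5 and 45.5 counts. Plagl1, a zinc finger transcription factor gene, had 137, 108, 132, 107 and 112 counts. The noncoding RNA Peg13, within Trappc9, had 175, 212, 250.1, 199 and 229 counts. Zrsr1, a splicing factor retrogene within Commd1, had 296, 224, 277, 336 and 328 counts. Its ratio to Commd1 was 2.24, 2.37, 4.57, 7.58 and 6.499, with Commd1 itself lower than in C57.CTL.F1 both in C57.D300.F2 (-1.11) and in FVB.CTL.F1 (-1.56).

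A list of 48 further imprinted genes and hosts of imprinted genes was read in the same way. With DEHP in C57BL/6J, none of 34 measured genes passed the fold, against 2.24% of all genes. In FVB/N, Nap1l5 (15.1 to 6.86 counts) and Begain (13.6 to 5.41 counts) were lower with DEHP, or 2 of 35 (5.71%). Of all genes, 0.619% were lower and 2.77% passed the fold in either direction. Both genes lay near the minimum of 10 counts. Of 39 genes, 3 were higher (Dio3, Th and Cntn3) and 6 lower in the F2 males than in C57.CTL.F1, or 7.69% and 15.4%, where 4.1% and 10.2% of all genes were. Dio3, the thyroid hormone deiodinase gene at the far end of the Dlk1-Meg3 domain, had 25.1 against 9.43 counts, and it was lower in both FVB/N conditions (7.93 and 5.79). The lower ones included Ddc, which encodes aromatic amino acid decarboxylase (9.95 against 304 counts), Tfpi2 (9.29 against 181) and Pon3, a paraoxonase gene (61.6 against 396), beside Slc38a4, Snurf and Commd1. In FVB.CTL.F1, Ddc, Tfpi2 and Pon3 had 10.6, 3.10 and 56.3 counts. These 3 genes followed the library set, as did the liver markers, and the part of the liver markers in them was not tested. Against C57.D300.F1, the F2 males were higher in Th and Cntn3 and lower in Slc38a4, Snurf, Tfpi2, Pon3 and Ddc, or 2 and 5 of 39 (2.69% and 8.35% of all genes). Between the vehicle groups, Th and Cntn3 were higher in FVB/N and Tspan32, Asb4, Tfpi2, Pon2, Pon3, Ddc and Commd1 lower, or 2 and 7 of 37 (7.5% and 18.8% of all genes). Between the DEHP F1 groups, Th and Cntn3 were higher and Dio3, Asb4, Tfpi2, Pon3 and Ddc lower, or 2 and 5 of 36 (12.0% and 19.9% of all genes). FVB.CTL.F1 against C57.D300.F2 gave 0 higher and 4 lower of 39 (Zim2, Rtl1, Dio3 and Asb4), and FVB.D300.F1 against it 0 higher and 3 lower of 38 (Zim2, Dio3 and Asb4), where 11.6% and 10.6% of all genes were lower. The median log2 ratio of these further genes stayed between -0.26 and 0.12 in the 8 comparisons.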

How the data were processed

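Sperm all-RNA-seq libraries were depleted of ribosomal RNA, fragmented and end-repaired before small RNA adapters were ligated. The authors processed base calls with CASAVA 1.8.2 per the submitters' notes, clipped the RA3 adapter, kept reads of at least 18 bases, mapped them to mm10 with TopHat (fr-secondstrand) and quantified them with Cuffdiff. Its options and the annotation release are not given in the sources used here. The deposited signal is 1 scaled estimated fragment count per gene and condition, pooled over 5 libraries and not divided by length, and the deposited model variance is a signal of the same table, whose square root is the model SD here. In all, 10 columns were used for 24358 genes, of which 71 had a failed estimate in at least 1 condition and were treated as missing there.

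Log2 ratios used a pseudocount of 1, a minimum of 10 counts in 1 compared condition and a limit of 1 log2 unit, in 8 comparisons, and the difference of the DEHP response between strains. Model SDs of ratios were propagated from the model variances of both counts. No test, p-value or SD between libraries could be computed from pooled values. Each pooled condition contains 5 libraries, whose single depths were not used here. Levels between genes were divided by the union of exons in GENCODE M21 (GRCm38, the build called mm10). For Airn that union covers 3.6 kb of a much longer gene, so its level per kilobase is uncertain. Gene positions are those of RefSeq on GRCm38. The members, their classes and all lists were chosen with earlier results of these data known. Every member is accounted for, and further genes are named in the comparisons in which they passed the fold. The alternatives were pseudocounts of 0.1 and 10, a minimum of 100 or none, a limit of 2, the model SD as an added limit, 3 other scalings, other class assignments and the longest transcript. The procedure was run on simulated data whose planted changes were far larger than the limit of 1 log2 unit. That run does not show how changes near this limit are recovered. Python 3.11.15, numpy 2.4.6, pandas 2.3.3 and matplotlib 3.10.9 were used.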

Additional observations from a re-analysis of the deposited data

How the results depend on the processing

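Over the 8 comparisons, 36 values of imprinted genes passed the fold, and 0 of them changed sign under another pseudocount or scaling. With these alternatives, 13 of the 36 came under the fold in at least 1, and 5 did so in a scaling. A limit of 2 log2 units left 0 genes for DEHP F1 against vehicle in C57BL/6J (0.291% of all genes) and 1 for F2 (4.19%). It left 1 for C57.D300.F2 against C57.D300.F1 (3.64%). For FVB/N against C57BL/6J it left 1 and 3 within vehicle and DEHP F1 groups (10.3% in each). For FVB.CTL.F1 and FVB.D300.F1 against C57.D300.F2 it left 1 and 1 (3.21% and 3.6%), and 0 for the strain difference of the response. A minimum of 100 counts left 0, 2 and 1 genes for the first 3 of these, 3 and 4 for the FVB/N groups against C57.D300.F2, and 1 for the strain difference. A pseudocount of 10 left 0 genes for DEHP F1 against vehicle in C57BL/6J, 1 for C57.D300.F2 against C57.D300.F1, 4 for FVB.CTL.F1 against C57.D300.F2 and 1 for the strain difference. No minimum gave 2 genes for FVB.D300.F1 against FVB.CTL.F1. The upper quartile gave 1 for DEHP F1 against vehicle in C57BL/6J, and equal totals gave 4 for the strain difference. Requiring a difference past the model SD left 1 for C57.D300.F2 against C57.D300.F1, where 10.3% of all genes met both limits. It left 1 for the strain difference. The cause of these moves was not tested beyond what each limit itself removes. Counts under other scalings, pseudocounts and minima stand without the share of all genes, as do all those for the strain difference here. They do not show whether members moved more than all genes did.

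Equal totals moved the median of all genes by -0.26 to 0.32, the upper quartile by at most 0.23 in size, and median-of-ratios by -0.04 to 0.05. Of 16 class medians, 2 changed sign in a scaling, both with a size of at most 0.12. With the longest transcript as length, the paternal median was 23.8 counts per kilobase in place of 15.8. Single libraries were not used, so leaving out a library could not be run. No paired analysis was possible because the columns hold 1 pooled value per condition and carry no single libraries. For the 4 genes under 10 counts everywhere, no ratio was read in the main comparisons, and only the alternative without a minimum included them.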
